A study of Homo sapiens with 5 samples.

Results

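The clustered protocadherins are cell-surface adhesion proteins encoded in 3 neighbouring gene clusters, alpha, beta and gamma, on human chromosome 5. Members were taken from the deposited gene table by a symbol that begins with PCDHA, PCDHB or PCDHG followed by a letter or number, without pseudogenes, and with at least 10 counts summed over all 5 libraries. This gave 40 of the 65217 genes in the table. Of these, 39 are protein-coding, with 4 alpha, 13 beta and 22 gamma genes, and the other is PCDHB1-AS1, an antisense RNA gene taken in by its symbol. A further 14 coding genes with a matching symbol, 11 alpha and 3 beta, lay under the minimum, and 5 of those had 0 counts. PCDHB1-AS1 with 11 counts and PCDHB8 with 15 lay just inside the minimum and PCDHA1 with 9 just outside it.

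RNA was measured in cells of the REH line, an established human line of precursor B leukaemia with the ETV6-RUNX1 (TEL-AML1) fusion, grown in NSG mice. NSG mice (NOD.Cg-PrkdcscidIl2rgtm1Wjl/SzJ) lack mature lymphocytes and accept human cells, and they were 6 to 10 weeks old. The brain group holds 3 libraries of leukaemia cells taken from the leptomeninges, the thin membranes around the brain, and the spleen group holds 2 libraries of cells taken from the spleen. All groups share the same cell line, host strain and density gradient purification, and no further treatment is named in the labels. Each library pooled the RNA of 5 mice, the work was run on 3 occasions, and the submitters dropped the last spleen pool for quality. The spread between libraries is therefore a spread between pools and occasions, not between single animals, and in pooled cells fewer expressing cells and less RNA per cell cannot be told apart.

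Clustered protocadherins are best known from neurons, where each cell expresses a small, partly random set of them and matching sets on neighbouring membranes bind each other, a code used in self-avoidance of neuronal branches and in survival of some neurons. Each variable exon has a promoter of its own and encodes the extracellular cadherin repeats, the membrane span and the start of the cytoplasmic tail. In the alpha and gamma clusters the chosen variable exon is spliced to 3 constant exons that encode a common end of the tail, while beta genes have no constant exons and are complete in their single large exon. Promoter choice is known to involve DNA methylation and looping by CTCF and cohesin, and most promoters carry a conserved sequence element. The C-type genes at the end of the alpha and gamma clusters are, in neurons, expressed less randomly than the others.

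Because the constant exons decide which values can be trusted for a single gene, their first exons are shown, with capitals marking the 39 of 59 positions at which the alpha and gamma exons carry the same base (GRCh38, plus strand).
Alpha (chr5:140978949-140979007): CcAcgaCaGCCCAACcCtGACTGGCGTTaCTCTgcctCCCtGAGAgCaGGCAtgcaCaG
Gamma (chr5:141494807-141494865): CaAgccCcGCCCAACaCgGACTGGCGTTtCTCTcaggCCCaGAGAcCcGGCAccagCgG
The alpha constant exons hold 59, 89 and 2721 bases and are shared by 15 genes, and the gamma constant exons hold 59, 89 and 2029 bases and are shared by all 22 gamma genes. A read inside them cannot be assigned to a gene. Every gamma gene also overlaps its neighbours in the annotation, because all of them run to the end of the same last exon. Counted as stretches of 31 bases, 46.8% of PCDHGB2, 49.0% of PCDHGB7 and 61.0% of PCDHGC3 occurred in no other of the human genes searched. Mouse transcripts, which the estimates also cover, were not searched. For the beta genes the same share was 59.4% for PCDHB9, 58.2% for PCDHB10, 78.8% for PCDHB12, 66.8% for PCDHB13 and 79.0% for PCDHB14. Values of single members are for this reason estimates shared out between similar sequences.

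The promoters of members that differed between the sites and of some that did not are shown next, to let the conserved element be compared between them. Sequences are RefSeq promoter windows of 250 bases before to 50 after the start (GRCh38.p14, plus strand), cut to the element and up to 25 bases on either side, and always upstream of the first transcribed base. Capitals mark the element, searched on both strands as GGTGGCGCT for beta, GATGTCGCT for alpha and GNCGCTGT for gamma, where N is any base. These letters were chosen after the promoters had been read.
PCDHB16 (chr5:141182296-141182354): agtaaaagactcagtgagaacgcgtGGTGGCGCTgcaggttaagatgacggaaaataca
PCDHB9 (chr5:141187060-141187118): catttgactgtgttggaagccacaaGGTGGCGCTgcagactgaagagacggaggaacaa
PCDHB10 (chr5:141192285-141192343): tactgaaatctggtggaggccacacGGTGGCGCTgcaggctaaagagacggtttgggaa
PCDHB12 (chr5:141208629-141208687): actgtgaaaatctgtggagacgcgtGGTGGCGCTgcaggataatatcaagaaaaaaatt
PCDHB13 (chr5:141213851-141213909): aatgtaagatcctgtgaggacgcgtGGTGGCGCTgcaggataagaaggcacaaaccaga
PCDHB14 (chr5:141223249-141223307): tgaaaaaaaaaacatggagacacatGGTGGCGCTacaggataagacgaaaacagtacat
PCDHB15 (chr5:141245300-141245358): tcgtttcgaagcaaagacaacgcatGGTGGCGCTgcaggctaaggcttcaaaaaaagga
PCDHA4 (chr5:140806965-140807023): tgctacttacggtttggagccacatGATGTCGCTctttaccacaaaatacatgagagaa
PCDHGB2 (chr5:141359910-141359967): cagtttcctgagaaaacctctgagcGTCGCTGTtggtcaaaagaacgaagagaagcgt
PCDHGB7 (chr5:141417572-141417629): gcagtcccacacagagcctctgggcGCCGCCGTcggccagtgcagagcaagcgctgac
PCDHGC3 (chr5:141475869-141475926): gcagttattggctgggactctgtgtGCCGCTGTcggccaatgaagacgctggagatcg
Promoter entries were found for 36 of the 39 coding members (PCDHB11, PCDHGA12 and PCDHGC5 had none), and 31 held the letters of their own cluster. The beta letters stood in 13 of 14 beta genes with an entry and in 0.619% of all 27305 genes with one, the alpha letters in 9 of 13 alpha genes and 0.128% of all, and the gamma letters in 17 of 20 gamma genes and 5.28% of all. The gamma letters are the least specific and overlap the alpha letters, and 5 of the 13 alpha genes held them too. In PCDHGB7 the capitals mark the closest stretch, which differs from the searched letters at 1 position. The element was present in PCDHB9, PCDHB10, PCDHB12, PCDHB13 and PCDHB14 and in their neighbours PCDHB16 and PCDHB15.

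Library totals ranged from 38387991 to 48656936 estimated counts in brain and from 46005806 to 48764202 in spleen. Mouse transcripts took 5.70%, 2.58% and 2.64% of all estimated counts in brain replicates 1 to 3, against 6.33% and 8.87% in spleen replicates 1 and 2, so the brain libraries were all lower (exact two-sided permutation test, p = 0.20, the smallest this design can give). Of 11 markers of precursor B cells, the labelled type, 10 were detected at a summed level of 6856 to 7112 CPM (counts scaled to library size) in brain and 7041 to 7165 CPM in spleen, and VPREB1 had 0 counts throughout. Among them CD79A was lower in brain (log2 fold change -0.61, edgeR adjusted p = 0.0166) and RAG1 higher (log2 fold change 0.55, edgeR adjusted p = 0.0137). Summed CPM of human neuronal markers was 9.92 to 10.3 in brain and 10.7 to 13.2 in spleen, with SNAP25 at 0 in every library and STMN2 at 0 in every brain library. Most of the sum came from SYT1, at 5.52 to 6.47 CPM in brain and 5.95 and 6.33 in spleen. RBFOX3 supplied most of the rest, at 2.51 to 3.92 CPM in brain and 6.43 and 3.83 in spleen, and neither passed. Human astrocyte markers summed to 1.41 to 1.67 CPM in brain and 0.911 to 1.23 in spleen, and human meningeal fibroblast markers to 1.82 to 2.32 in brain and 1.92 to 2.55 in spleen. Of the astrocyte markers, GFAP had 0.487, 0.687 and 0.733 CPM in brain, against 0.342 and 0.179 in spleen. It did not pass (log2 fold change 1.30, edgeR adjusted p = 0.0927), nor did ALDH1L1 (log2 fold change 0.07), and AQP4 and SLC1A2 were too low to test.

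In leukaemia cells from brain, 5 beta genes and 2 gamma genes were higher than in cells from spleen, and 0 members were lower in the same test. The beta genes PCDHB9, PCDHB10, PCDHB12, PCDHB13 and PCDHB14 rose by 1.53-fold to 2.14-fold, and the gamma B genes PCDHGB2 and PCDHGB7 rose by 2.65-fold and 2.44-fold. With the quasi-likelihood test of edgeR, adjusted by Benjamini-Hochberg over all genes, 32 of the 40 members could be tested. The 7 higher members made up 21.9% of those tested, beside 6.01% of all 20419 genes tested, and the 0 lower members stand beside 3.50% of all genes. In either direction 9.51% of all genes passed. At an unadjusted p under 0.05, 9 members were higher, beside 14.2% of all genes, and 2 were lower, beside 11.3%. The DESeq2 Wald test called PCDHGA6 lower (log2 fold change -0.50, adjusted p = 0.0488), beside 6.94% of all genes lower by that test. The median log2 fold change was 0.24 over the tested members and 0.01 over all genes tested. All brain libraries lay above all spleen libraries for 11 of the 32, against 23.3% of all genes, and below them for 4, against 19.5%.

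**Figure D1:**
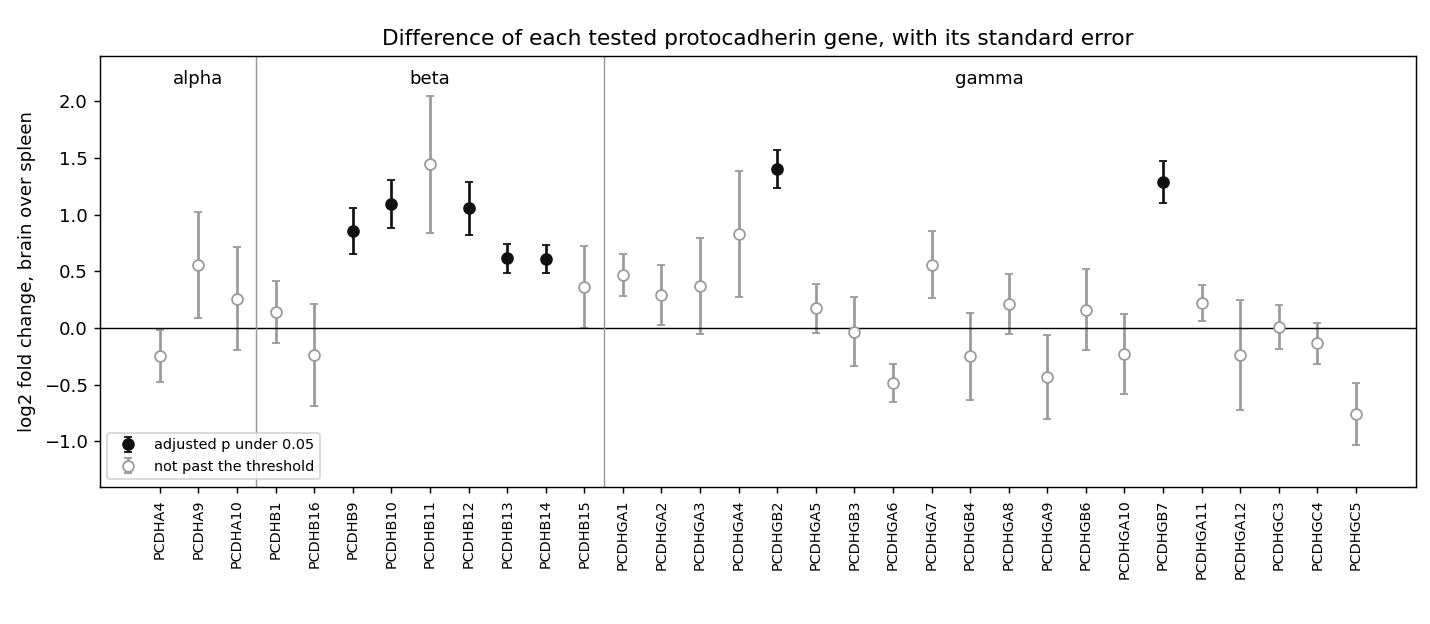
Log2 fold change, brain over spleen, of the 32 tested members in their order along the chromosome, with bars for 1 standard error; filled points have an adjusted p under 0.05 in edgeR's test. Filled points are PCDHB9, PCDHB10, PCDHB12, PCDHB13 and PCDHB14 in the beta cluster and PCDHGB2 and PCDHGB7 in the gamma cluster.

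The number of the 7 past the threshold changed with single libraries left out, while every one of them kept its direction. Leaving out brain replicate 1, 2 or 3 left 2, 3 or 4 of them, and spleen replicates 1 and 2 were also left out in turn. How many of all genes passed in these fits was not counted. Whether members lost calls more often than other genes is therefore not known. In these fits the log2 fold changes were 0.52 to 1.41 for the 5 beta genes and 1.15 to 1.55 for the 2 gamma genes. With the mouse share of each library as a further term only PCDHGB2 passed, at a log2 fold change of 1.67. The log2 fold changes of the beta genes in that fit were 0.71 for PCDHB9, 1.12 for PCDHB10, 0.80 for PCDHB12, 0.78 for PCDHB13 and 0.43 for PCDHB14.

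Of the 9 beta genes tested, 5 were higher in brain and 4 did not pass. The higher share was 55.6%, beside 6.01% of all genes. PCDHB14 had 22.1, 22.2 and 25.5 CPM in the brain libraries, against 16.2 and 14.3 in the spleen libraries. PCDHB13 had 18.3, 18.1 and 16.0 CPM in brain, against 10.8 and 12.0 in spleen. For both genes the brain libraries were all higher. PCDHB14 averaged 23.3 ± 1.94 CPM in brain (SD, n = 3) and 15.2 ± 1.36 in spleen (n = 2) (log2 fold change 0.61, SE 0.12; edgeR adjusted p = 0.0186). PCDHB13 (ENSG00000187372, GRCh38 chr5:141213919-141218979) averaged 17.5 ± 1.25 CPM in brain and 11.4 ± 0.866 in spleen (log2 fold change 0.62, SE 0.13; edgeR adjusted p = 0.0209). The genes of these homophilic adhesion proteins supplied most of the cluster's counts, from 66.9% to 69.7% of beta CPM in brain libraries and 68.6% to 73.7% in spleen libraries.

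PCDHB9 reached 7.53, 6.71 and 7.18 CPM in brain, against 4.65 and 3.25 in spleen. Its spleen libraries differed from each other more than its brain libraries did, and the log2 fold change was 0.86 (SE 0.20; edgeR adjusted p = 0.0327). PCDHB12 likewise stood at 5.51, 5.09 and 5.51 CPM in brain, against 3.17 and 2.0 in spleen. Its log2 fold change was 1.06 (SE 0.23; edgeR adjusted p = 0.0258). PCDHB10 had 3.51, 3.72 and 3.13 CPM in brain, against 1.62 and 1.61 in spleen. The groups did not overlap, and its adjusted p was the lowest among the beta genes (log2 fold change 1.10, SE 0.21; edgeR adjusted p = 0.0164). With counts summed from the transcript estimates in place of the gene table, PCDHB10 no longer passed (adjusted p = 0.0646).

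The 5 genes lie one after another in the cluster (chr5:141187127-141227759), with PCDHB11 as the only other coding gene among them. PCDHB11 was low, at 0.461, 0.667 and 0.289 CPM in brain, against 0.273 and 0.0794 in spleen. Its brain libraries lay above both spleen libraries by a narrow margin, and its log2 fold change of 1.44 (SE 0.60) did not pass (edgeR adjusted p = 0.171). PCDHB16 before the run and PCDHB15 after it had log2 fold changes of -0.24 (SE 0.45) and 0.36 (SE 0.36) and did not pass. PCDHB1, the first gene of the cluster, averaged 1.25 ± 0.218 CPM in brain and 1.13 ± 0.141 in spleen. PCDHB2, PCDHB3, PCDHB7 and PCDHB8 had 15 to 25 counts over all libraries and could not be tested, nor could PCDHB1-AS1. PCDHB4, PCDHB5 and PCDHB6 had 0 to 2 counts in all.

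Per length, the order of the beta genes was PCDHB14 with a mean of 7.0 TPM (counts scaled to transcript length and library) over the 5 libraries, PCDHB9 with 4.50, PCDHB13 with 3.84, PCDHB12 with 1.76 and PCDHB10 with 0.949. The other 8 coding beta genes lay at 0.0219 to 0.296 TPM. PCDHB9 and PCDHB13, neighbours in this order, stood at 5.29 ± 0.629 and 4.49 ± 0.303 TPM in brain and at 3.31 ± 0.322 and 2.87 ± 0.514 TPM in spleen, so their spreads overlapped at both sites. The place of PCDHB9 above PCDHB13 rests on short PCDHB9 transcripts of 498 and 616 bases. Its full-length transcript of 4415 bases lay at 1.69 to 1.84 TPM in brain and at 0.801 and 1.02 TPM in spleen, below the PCDHB13 transcript in every library, at 4.24 to 4.83 TPM in brain and 2.50 and 3.23 TPM in spleen. The full-length PCDHB14 transcript of 4828 bases lay at 4.12, 4.60 and 4.88 TPM in brain and at 3.03 and 2.98 in spleen. It was below the PCDHB13 transcript in brain replicates 1 and 2 and spleen replicate 2, and above it in the other libraries. The first place of PCDHB14 thus also rests in part on its further transcripts. The 5 genes that differed held 95.3% to 97.6% of the beta TPM in brain libraries and 94.0% to 94.9% in spleen libraries. Summed over the 13 coding beta members, the level was 20.6, 23.2 and 23.2 TPM in brain, against 13.4 and 13.8 TPM in spleen.

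**Figure D2:**
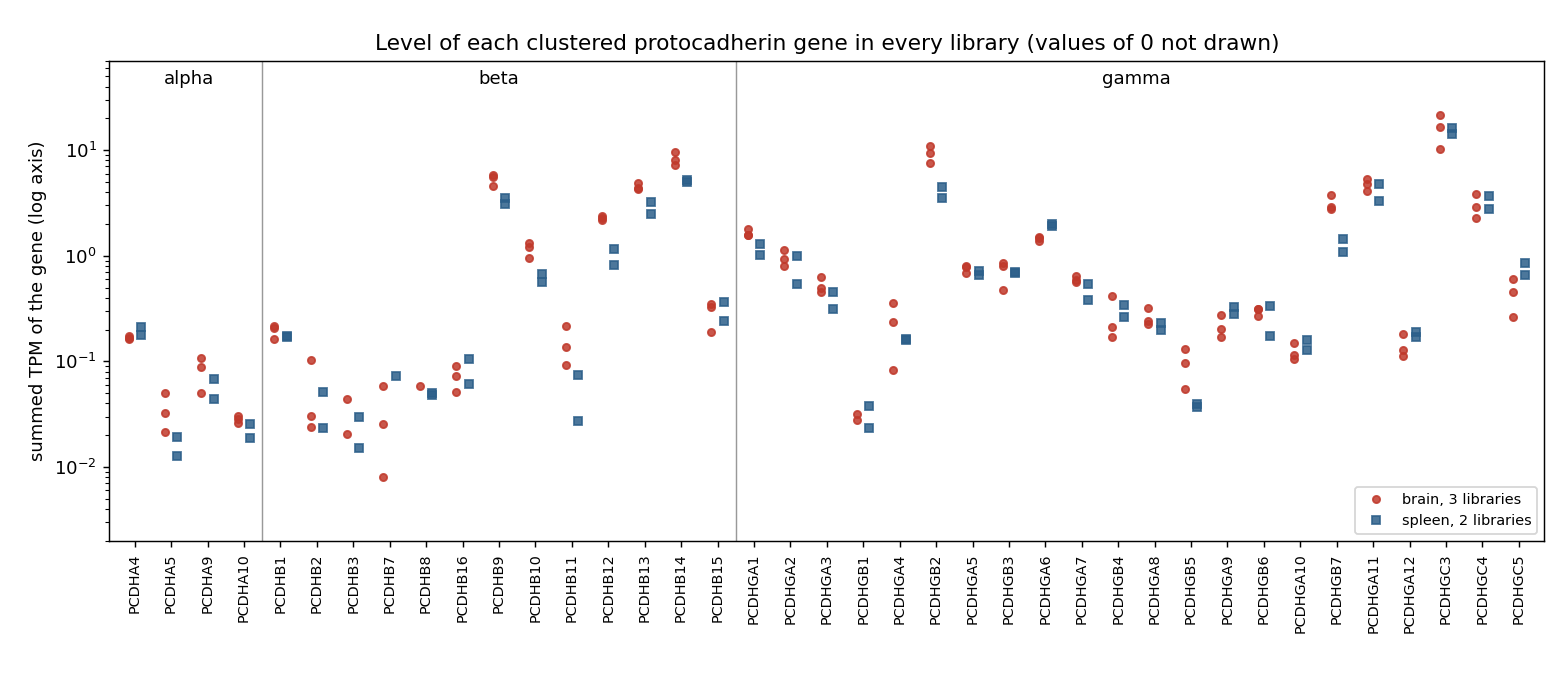
Level of the 39 coding members in every library, as TPM summed over the transcripts of each gene, on a log axis; circles are brain libraries and squares spleen libraries, genes stand in their order along the chromosome, and values of 0 are not drawn. Levels range from PCDHGC3, with a mean of 15.8 TPM, to PCDHB3, with 0.0219 TPM, and the run from PCDHB9 to PCDHB14, without PCDHB11, stands above the rest of the beta cluster. In brain and in spleen replicate 1 the first rank of PCDHGC3 rests on a short transcript lying mostly in the constant exons.

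In the gamma cluster 2 of 20 tested genes, both of the B type, were higher in brain, and the 18 others did not pass. This share, 10%, lies near the 6.01% of all genes that were higher in brain. PCDHGB2 had 30.7, 30.2 and 21.7 CPM in brain, against 9.96 and 10.8 in spleen. Brain replicate 3 was the lowest of its group and still well above both spleen libraries. PCDHGB2 (ENSG00000253910, chr5:141359994-141512975) averaged 27.5 ± 5.07 CPM in brain and 10.4 ± 0.576 in spleen (log2 fold change 1.41, SE 0.17; edgeR adjusted p = 0.00185). It was the only member past the threshold in every alternative run, with adjusted p-values from 1.77e-18 to 0.0391.

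PCDHGB7 had 10.7, 12.6 and 9.33 CPM in brain, against 4.01 and 4.88 in spleen. Every brain library was well above both spleen libraries. PCDHGB7 (ENSG00000254122, chr5:141417645-141512975) averaged 10.9 ± 1.64 CPM in brain and 4.45 ± 0.615 in spleen (log2 fold change 1.29, SE 0.19; edgeR adjusted p = 0.00469). With the mouse share as a term it kept a log2 fold change of 1.40 but did not pass (adjusted p = 0.127). Together PCDHGB2 and PCDHGB7 made up 26.4% to 33.7% of gamma CPM in brain libraries and 14.5% to 15.4% in spleen libraries. The other gamma B genes tested, PCDHGB3, PCDHGB4 and PCDHGB6, had log2 fold changes of -0.03, -0.25 and 0.16 and did not pass, and PCDHGB1 and PCDHGB5 were too low to test.

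None of the 12 gamma A genes passed. PCDHGA11, the most abundant of them, had 17.6, 17.5 and 13.7 CPM in brain, against 12.2 and 15.6 in spleen. The groups overlapped, and the log2 fold change was 0.22 (SE 0.16; edgeR adjusted p = 0.439). PCDHGA6, named because the DESeq2 Wald test called it, had 6.71, 5.44 and 5.87 CPM in brain, against 8.86 and 7.93 in spleen. All its brain libraries lay below the spleen libraries (log2 fold change -0.48, SE 0.16; edgeR adjusted p = 0.102).

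The C-type genes did not pass either. PCDHGC3, at a mean of 15.8 TPM the most abundant clustered protocadherin, had 23.4, 31.5 and 40.2 CPM in brain, against 32.3 and 30.8 in spleen. Its brain libraries lay on both sides of the spleen libraries, with brain replicate 3 highest and brain replicate 1 lowest, and the log2 fold change was 0.01 (SE 0.19). PCDHGC4, which is needed for neuronal survival in mice, had 9.20, 9.94 and 6.82 CPM in brain, against 8.93 and 10.1 in spleen. The groups overlapped (log2 fold change -0.14, SE 0.18, edgeR adjusted p = 0.709). PCDHGC5 had 1.64, 1.43 and 0.933 CPM in brain, against 2.26 in each spleen library. Every brain library lay below the spleen libraries, but the log2 fold change of -0.76 (SE 0.27) did not pass (edgeR adjusted p = 0.122). The alpha C-type genes lay under the minimum, PCDHAC1 with 5 counts over all libraries and PCDHAC2 with 0.

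**Figure D3:**
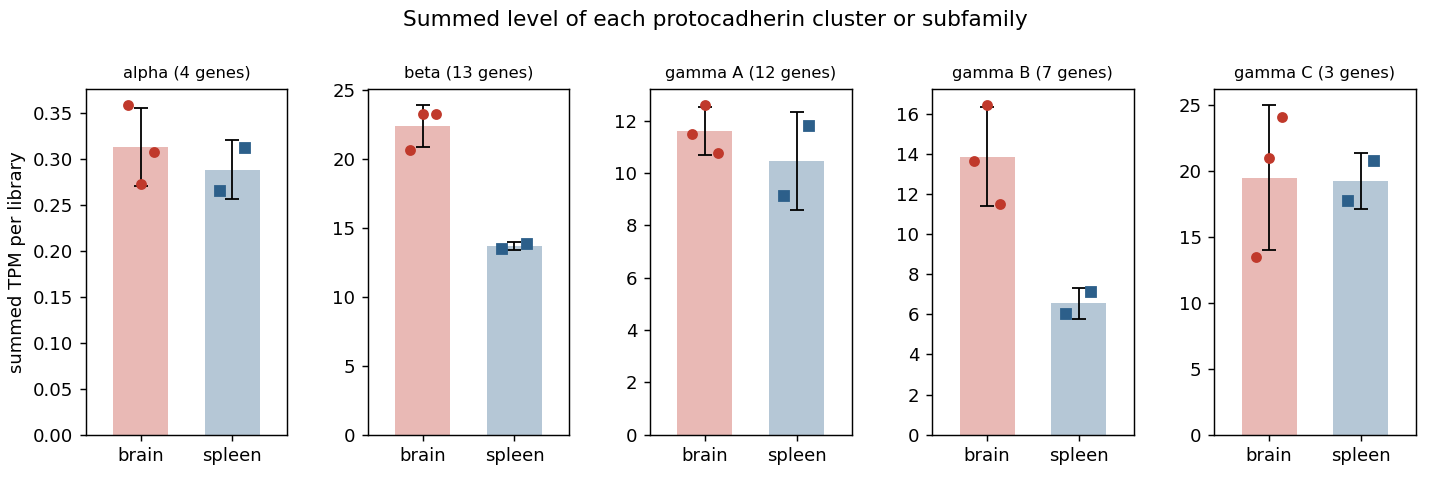
Summed TPM per library of the coding members of the alpha and beta clusters and of the gamma A, B and C genes, with brain left of spleen; points are libraries, bars means and error bars SD, and each panel has its own axis from 0. Beta sums lie at 20.6 to 23.2 TPM in brain against 13.4 to 13.8 in spleen, gamma B sums at 11.5 to 16.4 against 6.02 to 7.11, and the other panels overlap between the sites. Most of the gamma B sum comes from PCDHGB2 and PCDHGB7.

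By subfamily, gamma B genes summed to 13.6, 16.4 and 11.5 TPM in brain, against 6.02 and 7.11 TPM in spleen. Gamma A genes summed to 11.5, 12.6 and 10.8 TPM in brain, against 9.14 and 11.8 TPM in spleen, and gamma C genes to 13.5, 21.0 and 24.1 TPM in brain, against 17.8 and 20.7 TPM in spleen. Gamma B sums did not overlap between the sites, while gamma A and gamma C sums did. No test was made of these sums, since the genes in them had been fitted singly.

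The transcript estimates separate spliced gamma transcripts, which carry the constant exons, from single-exon transcripts that hold the variable exon and sequence directly after it. The spliced PCDHGB2 transcript (ENST00000522605) had 24.8, 21.0 and 16.9 CPM in brain, against 5.67 and 5.43 in spleen. The single-exon PCDHGB2 transcript (ENST00000622527) had 5.62, 8.40 and 5.60 CPM in brain, against 4.57 and 5.10 in spleen. In both forms the lowest brain value lay above the highest spleen value. The log2 fold change was 1.91 (SE 0.23; edgeR adjusted p = 0.212) for the spliced form and 0.44 (SE 0.28; edgeR adjusted p = 0.768) for the other, and the difference between the forms was not tested. The spliced form took 71.4% to 81.5% of the estimated counts of PCDHGB2 in brain libraries and 51.5% to 55.4% in spleen libraries. How far counts from the constant exons were shared out between genes to give this split was not tested.

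The spliced PCDHGB7 transcript (ENST00000398594) had 9.97, 11.6 and 9.01 CPM in brain, against 3.65 and 4.61 in spleen (log2 fold change 1.30, SE 0.24). It held most of the gene's counts, from 92.8% to 94.7% in brain libraries and 88.7% and 96.6% in spleen libraries. Summed over all 29 spliced gamma transcripts the level was 91.5, 96.4 and 93.0 CPM in brain, against 67.2 and 70.3 CPM in spleen. Without those of PCDHGB2 and PCDHGB7 it was 56.7, 63.8 and 67 CPM in brain, against 57.9 and 60.3 CPM in spleen, and the groups overlapped.

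The level of PCDHGC3 rests largely on a short transcript (ENST00000617641) of 2346 bases, of which 2177 lie in the constant exons. It had 13.0, 16.6 and 32.7 CPM in brain, against 20.8 and 15.7 in spleen, so brain replicate 3 stood far above the other libraries. The full-length PCDHGC3 transcript (ENST00000308177) had 9.70, 12.4 and 8.38 CPM in brain, against 11.5 and 12.3 in spleen, and brain replicate 3 was lowest in it. In TPM the full-length transcript lay at 2.29 to 3.65 in brain and at 2.78 and 3.64 in spleen. The spliced PCDHGB2 transcript lay at 4.76 to 6.65 TPM in brain and at 1.41 and 1.65 in spleen. In brain, the first rank of PCDHGC3 by summed TPM therefore rests on the short transcript. In spleen replicate 1 the full-length PCDHGC3 transcript also lay below the full-length PCDHB14 transcript, at 2.78 against 3.03 TPM. In spleen replicate 2 it lay above it, at 3.64 against 2.98 TPM. The short transcript took 14.2%, 17.2% and 35.2% of all spliced gamma counts in brain replicates 1 to 3, against 30.9% and 22.4% in spleen. The brain libraries spanned the spleen values in this share.

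**Figure D4:**
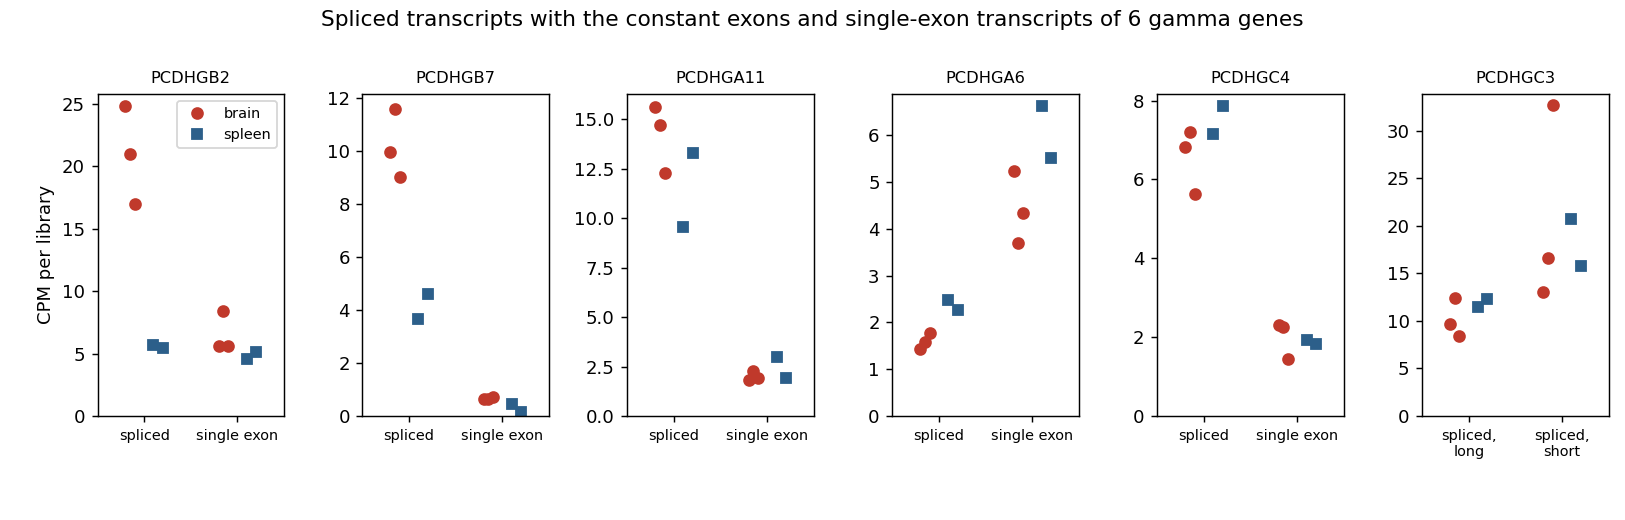
CPM in every library of pairs of transcripts of 6 gamma genes, circles for brain and squares for spleen, where spliced transcripts carry the constant exons and single-exon transcripts do not; for PCDHGC3 a long and a short spliced transcript are drawn, and each panel has its own axis from 0. The spliced PCDHGB2 transcript lies at 16.9 to 24.8 CPM in brain against 5.43 to 5.67 in spleen, while the single-exon one lies at 5.60 to 8.40 against 4.57 to 5.10.

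Tested one by one, no transcript of the whole table passed: edgeR called 0.00% of 75118 human transcripts, and the lowest adjusted p of all was 0.119. The spread between libraries was larger for transcripts, with a common coefficient of variation of 0.552, than for genes, with one of 0.148. Among 54 member transcripts tested, 8 were higher and 0 lower at an unadjusted p under 0.05, beside 4.86% and 3.21% of all transcripts. The 8 belong to the same 7 genes, PCDHB14 giving 2 of them. The DESeq2 Wald test, added after these results were seen, called 3 member transcripts higher, beside 1.70% of all transcripts, and 0 lower, beside 0.643%. They were the spliced forms of PCDHGB2 (adjusted p = 4.04e-12) and PCDHGB7 (adjusted p = 3.68e-05) and a PCDHB13 transcript (adjusted p = 0.0040).

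The alpha cluster was low, with members at 0.0259 to 0.179 TPM, and none of the 3 tested passed. PCDHA4, its most abundant member at a mean of 0.179 TPM, had 1.54, 1.29 and 1.33 CPM in brain, against 1.62 and 1.67 in spleen. All brain libraries lay below the spleen libraries by a narrow margin, and the log2 fold change of -0.24 (SE 0.23) did not pass (edgeR adjusted p = 0.570). PCDHA9 and PCDHA10 had log2 fold changes of 0.56 (SE 0.47) and 0.26 (SE 0.46) and did not pass, and PCDHA5, with 20 counts in all, could not be tested. Alpha transcripts without constant exons, all of them single-exon forms, held 94.3 to 96.8 estimated counts in brain libraries and 97.3 and 112 in spleen libraries. Spliced alpha transcripts held 6.57 estimated counts in brain replicate 1 and 0 in every other library. The values of the alpha members are almost wholly counts on single-exon transcripts.

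The regulators and partners of the family were counted in the same fit. Of 26 chromatin regulators linked to the clusters, 2 were higher, 1 lower and 23 did not pass, with a median log2 fold change of 0.04. These shares, 7.69% and 3.85%, lie near the 6.01% and 3.50% of all genes. LRIF1, a binding partner of the chromatin protein SMCHD1, which silences protocadherin clusters, had 47.0, 46.4 and 55.3 CPM in brain, against 33.5 and 31 in spleen (log2 fold change 0.62, SE 0.11, edgeR adjusted p = 0.0137). TET2, which oxidises methylated cytosine, had a log2 fold change of 0.48 with an SE of 0.10 (edgeR adjusted p = 0.0211). DNMT3B, a DNA methyltransferase that in mice methylates protocadherin promoters, had 14.9, 16.5 and 15.5 CPM in brain, against 24.9 and 21.0 in spleen (log2 fold change -0.55, SE 0.12; edgeR adjusted p = 0.0246). All 3 separated the sites without overlap, beside 23.3% of all genes wholly above and 19.5% wholly below in brain. They were named because they passed in these same libraries, so this adds no further evidence.

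Of 25 cytoplasmic partners and shedding enzymes, 1 was higher, 0 lower and 24 did not pass, with a median log2 fold change of 0.20, so the higher share was not above the 6.01% of all genes. The gene was PRKCA, a protein kinase C, with a log2 fold change of 0.48 and an SE of 0.12 (edgeR adjusted p = 0.0400).

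Human genes used as markers of other cell types stand beside these results. The REH line is the only human source named for these libraries, and which cells or reads gave these counts was not tested. The 5 endothelial markers summed to 14.3, 19.2 and 12.2 CPM in brain, against 3.03 and 2.84 in spleen. PECAM1 supplied most of this in brain, at 10.2 to 17.4 CPM, against 1.09 to 1.78 in spleen (log2 fold change 3.23, edgeR adjusted p = 0.000601). In spleen replicate 2 CLDN5 was the larger part. CLDN5 lay at 1.37 to 1.71 CPM in brain, against 1.18 and 1.51 in spleen, and VWF at 0.111 to 0.384 CPM in brain, against 0.0456 and 0.238 in spleen, and neither passed. CDH5 and KDR lay at 0 to 0.133 and 0 to 0.0667 CPM in brain, against 0 to 0.0228 and 0 in spleen. Of 5 macrophage markers CX3CR1 and CD68 were higher in brain and 3 did not pass. CX3CR1 had 0.359, 0.869 and 0.667 CPM in brain, against 0.114 and 0.0992 in spleen (log2 fold change 2.55, edgeR adjusted p = 0.0218). CD68 had 0.641, 1.72 and 1.02 CPM in brain, against 0.251 and 0.317 in spleen (log2 fold change 1.98, edgeR adjusted p = 0.0335). The summed level, nearly all from AIF1, overlapped, at 69.9 to 95.6 CPM in brain and 65.8 to 84.3 in spleen. Oligodendrocyte markers summed to 14 to 17 CPM in brain and 11.2 to 11.4 in spleen, nearly all from MBP, T cell markers to 0.323 to 0.489 in brain and 0.0684 to 0.159 in spleen, and erythroid markers to 0.102 to 0.182 in brain and 0.159 to 0.298 in spleen. The part of these markers in the protocadherin differences was not tested.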

How the data were processed

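Per the submitters' processing notes, bcl2fastq 1.8.4, cutadapt 1.5, kallisto 0.42.4 and DESeq2 were used with the builds GRCh38 and GRCm38; the strand setting is not given in the sources used here. The authors deposited estimated counts and TPM per transcript, which cover human and mouse together, and a gene table of estimated counts as whole numbers. A table of log2 values by the authors served only as an alternative. Each gene table has 1 column of no sample, which was not used.

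Symbols, coordinates and exons came from GENCODE 44, and 86.4% of gene IDs matched. Rounded counts were tested with edgeR 4.0.16 (R 4.3.3) by the quasi-likelihood F test, after filterByExpr and TMM scaling, with site as the only term, Benjamini-Hochberg adjustment over all genes or transcripts, and a threshold of 0.05. CPM were computed here with TMM scaling. The gene fit had 3 residual degrees of freedom. DESeq2 1.42.0 and limma 3.58.1 served as alternatives. The code was checked on simulated data. SD covers 3 brain or 2 spleen libraries.

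The replicate numbers of the titles were taken to pair the libraries, since they stand for occasions in the labels' protocols, although the deposited columns number spleen replicates 1 and 2 as 2 and 4. Deviations from the group means of same-numbered libraries correlated at r = -0.02 for replicate 1 and 0.22 for replicate 2. These correlations run across genes, which are not independent. Brain replicate 3 has no partner, and gave r = 0.20 with spleen replicate 1. With 2 spleen libraries their deviations mirror each other, so these values cannot decide on the pairing. Members and lists were chosen with earlier results of these data known. Named were members past the threshold, the 4 most abundant by mean TPM in each cluster, every C-type gene, and in each list of regulators, partners, other cadherins and neighbours up to 3 genes of smallest p that passed, or its most abundant gene if none did. A gene of the list of partners and shedding enzymes is not reported here and was left out of that list's counts.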

Additional observations from a re-analysis of the deposited data

How the results depend on the processing

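Members higher in brain numbered 7 in the gene fit, the same 7 with upper-quartile scaling, DESeq2 size factors, a filter of 1 CPM in 2 libraries, no filter, the DESeq2 Wald test, the authors' log2 values and the replicate block, and 6 with summed transcript estimates. The replicate block changed no call of a member. With the mouse share as a covariate the count was 1, and with 1 library left out it was 2 to 5; where this leaves 1 spleen library, that library is assumed to vary like the brain libraries. The cause of these drops was not tested, though fewer libraries or residual degrees of freedom lower the power by construction. The mouse share was at most 5.70% in brain and at least 6.33% in spleen. Site and mouse share can therefore hardly be told apart in these 5 libraries. Members lower numbered 0, but 1 by the DESeq2 Wald test. Member transcripts past the threshold numbered 0, also with the added filter of 1 CPM in 2 libraries, but 3 by the added DESeq2 Wald test.

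Fold changes over the settings were followed only for tested members that passed, the most abundant of each cluster and the C-type genes. Among these, signs turned for 3 genes that did not pass in any setting. PCDHA10 had a log2 fold change of -0.138 with the mouse share and -0.024 to 0.578 with 1 library left out. PCDHGC3 had -0.01 with DESeq2 size factors, -0.002 with upper-quartile scaling, -0.003 with 1 CPM in 2 libraries, -0.008 with the DESeq2 Wald test and with summed transcript estimates, -0.213 with the replicate block, -0.571 with the mouse share, -0.023 with the authors' log2 values, and -0.204 to 0.185 with 1 library left out. PCDHGC4 had 0.011 with the replicate block, 0.065 with the mouse share and -0.248 to 0.005 with 1 library left out. The cause was not tested. Cluster sums kept their ratios within the spread of the libraries as TPM or upper-quartile CPM. For members with few counts, such as PCDHB11, depth limits what could be detected.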

Other observations

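Of 24 protocadherins and related cadherins outside the clusters 15 could be tested. In brain 6 were higher, beside 6.01% of all genes, 1 was lower, beside 3.50%, and 8 did not pass, with a median log2 fold change of 0.38. PCDH12, a protocadherin best known from endothelium, had 8.22, 11.8 and 11 CPM in brain, against 1.53 and 1.75 in spleen (log2 fold change 2.65, SE 0.22; edgeR adjusted p = 0.000348). CELSR3, a seven-pass cadherin of axon guidance, had 6.02, 5.90 and 5.98 CPM in brain, against 2.37 and 3.13 in spleen (log2 fold change 1.11, edgeR adjusted p = 0.0114). FAT1, a giant cadherin, had 1.69, 2.08 and 2.16 CPM in brain, against 0.775 and 0.555 in spleen (log2 fold change 1.57, edgeR adjusted p = 0.0116). The gene that was lower was CELSR2, named after its value was seen, at 33.6, 34.6 and 29.3 CPM in brain, against 44.2 and 51.7 in spleen (log2 fold change -0.56, edgeR adjusted p = 0.0211).

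Of 17 genes that flank the clusters on chromosome 5, 16 could be tested, and 1 was higher, 0 lower and 15 did not pass, with a median log2 fold change of -0.15. The higher share, 6.25%, is near the 6.01% of all genes. The higher gene was ARAP3, a GTPase-activating protein, at 6.66, 9.32 and 7.78 CPM in brain, against 3.05 and 2.90 in spleen (log2 fold change 1.41, SE 0.20, edgeR adjusted p = 0.00438).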
